A study of Mus musculus with 12 samples.

Results

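miRNAs whose hairpins are not released by the nuclear Microprocessor were examined in mouse embryonic fibroblasts (MEFs) and in 4 kinds of pluripotent cell. The members were all rows of the deposited miRNA table that name an arm of miR-320, miR-484, miR-877, miR-1224 or miR-702, which gave 8 of the 1042 rows. They were mmu-miR-320-3p, mmu-miR-320-5p, mmu-miR-484, mmu-miR-877-5p, mmu-miR-877-3p, mmu-miR-1224-5p, mmu-miR-1224-3p and mmu-miR-702, the last of which was deposited without an arm. The 12 small RNA libraries comprised 3 of MEFs from C57B6/129SvJae F1 embryos, 3 of the embryonic stem cell (ESC) line E14 of strain 129/ola, and 2 of each reprogrammed type (iPSC, NT-ESC and NT-iPSC). Doxycycline-inducible lentiviruses carrying Oct4, Sox2, Klf4 and c-Myc turned the MEFs into iPSCs. Nuclear transfer into oocytes gave the other types, NT-ESCs from MEF nuclei and NT-iPSCs from iPSC nuclei, so that all 3 reprogrammed types go back to the same MEF line. The pluripotent cells, ESCs included, were grown with leukaemia inhibitory factor on irradiated MEFs. Each type was represented by 1 line, extracted in several batches, so the limma p values measure the spread between batches and not between lines. The permutation tests pool the libraries of 3 reprogrammed or 4 pluripotent types, so their spread also holds differences between types. Libraries pooled in this way are not independent lines.

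Most animal miRNAs are cut from a long primary transcript by the Microprocessor, the complex of Drosha and DGCR8, and the hairpin that leaves the nucleus is cut again by Dicer before 1 strand is kept in an Argonaute protein. A mirtron skips the first cut, because its hairpin is a short intron that splicing and debranching set free. The hairpins of miR-320 and miR-484 also skip it, and that of miR-320 is known as a capped precursor whose ends are those of the transcript itself. These miRNAs are known from mouse ESCs without DGCR8, in which they persist while canonical miRNAs are lost.

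The sequences below show the intron structure and the seeds to which the values belong. RefSeq (GRCm38.p6) held hairpins for 4 of the 5 loci, and the hairpins of miR-484, miR-877 and miR-1224 follow, 5′ to 3′, with the mature arms in capitals.
Mir484: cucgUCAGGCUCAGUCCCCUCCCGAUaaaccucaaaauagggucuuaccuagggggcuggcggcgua
Mir877: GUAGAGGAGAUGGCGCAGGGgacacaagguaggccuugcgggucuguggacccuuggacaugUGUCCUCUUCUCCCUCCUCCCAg
Mir1224: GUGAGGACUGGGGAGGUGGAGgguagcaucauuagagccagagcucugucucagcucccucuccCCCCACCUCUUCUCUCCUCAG
The mature arms of the members the results turn on follow with the seed, bases 2 to 8, in capitals.
mmu-miR-484: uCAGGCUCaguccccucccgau
mmu-miR-877-5p: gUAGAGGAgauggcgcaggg
mmu-miR-877-3p: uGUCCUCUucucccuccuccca
mmu-miR-1224-5p: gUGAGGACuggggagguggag

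In the GENCODE M21 annotation of GRCm38, Mir877 (chr17:35960730-35960814, minus strand) filled intron 12 of 22 of Abcf1, a gene for an ATP-binding cassette protein of translation, from the first base to the last. Mir1224 (chr16:20604452-20604536, plus strand) filled intron 22 of 22 of Vwa5b2 in the same way. Both introns were 85 bases long, and both hairpins began with GU and ended with AG, the usual intron ends, as did 30 of the 1005 RefSeq mouse hairpins. Mir702 (chr5:136991433-136991541, plus strand) lay over intron 13 of 18 of Plod3, a lysyl hydroxylase gene; the hairpin began 9 bases before the intron and ended 2 bases short of its end. The 3p arms of the pair that fills an intron came from the end next to the 3′ splice site and were rich in pyrimidines, at 90.9% for miR-877-3p and 85.7% for miR-1224-3p against a median of 50% over 1679 mature mouse miRNAs. Their 5p arms held 20% and 19%.

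The remaining hairpins did not fill an intron. Mir320 (chr14:70443510-70443591, plus strand) was 63 bases from the start of Polr3d, a gene for an RNA polymerase III subunit on the minus strand. Mir484 (chr16:14159626-14159692, plus strand) overlapped Marf1 on the opposite strand and was 3583 bases upstream of Nde1. No 2 of the seeds of the RefSeq member arms were alike, and none was shared with another mouse miRNA except that of miR-702-5p, which is also the seed of miR-3102-5p.

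Each library held between 4863365 and 8608689 miRNA reads, so that 3 reads stand for 0.348 to 0.617 reads per 1000000 miRNA reads (CPM). The values deposited are variance-stabilized (VST) and on a log2 scale, and differences below are differences in mean VST, tested with limma over 732 miRNAs that reached 10 reads in 2 or more libraries. The reads behind them were recovered by inverting the transformation, and intervals and floors from them cover counting error only. CPM and VST rank MEFs differently, because the authors' size factors were 0.724 to 0.779 in MEFs although these libraries held the most miRNA reads. In a check of the cell types, 24 rows of the miR-290 and miR-302 families, which mark pluripotent cells, summed to a CPM of 0.890 to 12.9 in MEFs and of 101591 to 208217 in pluripotent libraries; 2 of the 24 were at 0 in every ESC library. The 10 fibroblast rows of miR-199, miR-214, miR-143 and miR-145, none of which was at 0 in any group, summed to 65616 to 99559 in MEFs, 40294 to 44175 in ESCs, 21337 to 23308 in iPSCs, 60542 to 61436 in NT-ESCs and 61798 to 71393 in NT-iPSCs. The part of feeder RNA in the results was not tested. No label gives a sequencing run, so cell type and the handling of its libraries cannot be told apart. Reads left by the study's own filters numbered 9427996 to 10821154 in MEF and ESC libraries and 11935864 to 15381080 in reprogrammed ones. The study also lists a larger share of 5′ adaptor contaminants in every reprogrammed library than in any MEF or ESC library. The rise of miR-320-3p given below runs along this same division, and the part of handling in it was not tested.

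Of the 8 members, 4 passed the read filter: miR-320-3p, miR-484, miR-877-5p and miR-1224-5p. The other rows were at the edge of detection, with 0 to 4 reads per library for miR-320-5p, 0 to 6 for miR-877-3p, 0 to 3 for miR-702 and 0 in every library for miR-1224-3p, where a count of 0 allows up to 3 reads. The members' share of all miRNA reads was 0.0334% to 0.0774% in the MEF libraries, 0.105% to 0.135% in the ESC libraries and 1.79% to 1.95% in the 6 reprogrammed ones. The ranges of these 3 sets of libraries did not overlap on that denominator. As a percentage of the clean reads, those left by the read filters of the study, the same miRNA reads made up 0.0265% to 0.0592% of MEF libraries, 0.0541% to 0.0679% of ESC libraries, so that these ranges overlapped, and 0.791% to 1.05% of reprogrammed libraries, which again stood above both. In such bulk libraries, fewer cells that make a miRNA and less of it per cell cannot be told apart. The mean share of 1.86% ± 0.0691 (SD, n = 6) in reprogrammed cells exceeded that of ESCs, 0.118% ± 0.0159 (SD, n = 3), by 1.74 percentage points (p = 0.0119 in an exact permutation test, two-sided, which is the least that 84 arrangements allow; adjusted p = 0.0357 over 6 such tests). Between MEFs and the 9 pluripotent libraries the difference was -1.22 percentage points (exact permutation p = 0.0227, adjusted p = 0.0357), with a p of 0.0667 when any 1 reprogrammed library was left out. With clean reads as the denominator these differences were 0.83 (exact permutation p = 0.0119) and -0.57 percentage points (exact permutation p = 0.0455). The reprogrammed share was almost wholly miR-320-3p, which took 98.5% to 99.2% of the members' reads there, 77% to 82.7% in MEFs and 67.3% to 70.9% in the ESC libraries. Without miR-320-3p, the members' share lay lower in reprogrammed cells than in ESCs by 0.0146 percentage points (exact permutation p = 0.0119).

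miR-320-3p, the capped-precursor miRNA, differed most between reprogrammed cells and the other types. Its CPM was 265, 596 and 534 in MEF batches 13, 14 and 15 and 743, 790 and 912 in ESC batches 2, 3 and 4. It was 19013 and 18462 in iPSCs, 17889 and 17699 in NT-ESCs, and 19327 and 17819 in NT-iPSCs. The 6 reprogrammed libraries lay within a narrow band, far above every MEF and ESC library, and the reprogrammed mean was 22.5 times that of ESCs on CPM and 21.0 times on normalized reads. By abundance, miR-320-3p ranked between 13 and 17 in reprogrammed libraries, between 94 and 106 in ESCs and between 87 and 122 in MEFs. The mean VST of reprogrammed cells lay above that of ESCs by 4.38 (SE 0.19; limma, adjusted p = 1.41e-09) and above that of MEFs by 4.38 (adjusted p = 7.46e-10). Of 732 miRNAs, 60 had a larger rise over ESCs than this. Each reprogrammed type showed the rise over ESCs on its own; it was 4.11 for the iPSCs, and 4.40 and 4.64 for the cells derived by nuclear transfer of MEF and iPSC nuclei. Between MEFs and ESCs the difference was 0.0025 (SE 0.22, adjusted p = 0.999), but this value followed the scaling: it was 0.64 with upper quartile scaling (adjusted p = 0.0138) and -0.51 with TMM-type scaling (adjusted p = 0.0354).

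**Figure D1:**
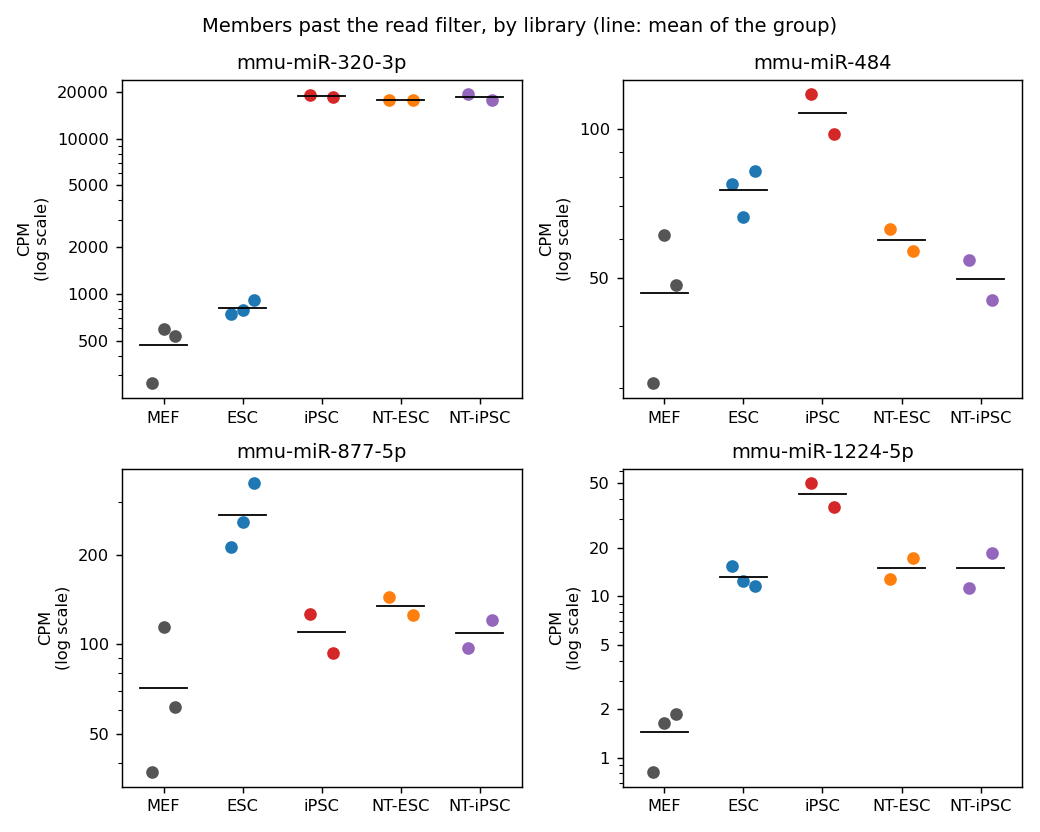
CPM (log axis, a separate range in each panel) of the 4 members past the read filter, with 1 point per library and a line at each group's mean. The 6 reprogrammed libraries lie between 17699 and 19327 for miR-320-3p, the ESC libraries are highest for miR-877-5p, and the iPSC libraries are highest for miR-484 and miR-1224-5p.

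miR-484, the other member whose hairpin is neither an intron nor a Microprocessor product, did not follow miR-320-3p. Its CPM was 30.7, 61.3 and 48.4 in MEFs, 77.3, 66.5 and 82.4 in ESCs, 117 and 97.6 in iPSCs, 62.8 and 56.8 in NT-ESCs, and 54.5 and 45.2 in NT-iPSCs. On CPM the 2 iPSC libraries stood above all others, while the NT-ESC and NT-iPSC libraries lay below the ESC libraries. On the VST scale, the reprogrammed mean against ESCs was -0.26 (SE 0.17; limma, adjusted p = 0.177) and MEFs against ESCs 0.15 (SE 0.19, adjusted p = 0.484). Taken singly against ESCs, the VST difference of miR-484 was 0.09 for iPSCs (adjusted p = 0.705), -0.39 for NT-ESCs (adjusted p = 0.121) and -0.47 for NT-iPSCs (adjusted p = 0.065). None of the 3 passed, but NT-iPSCs did with TMM-type scaling (-0.67, adjusted p = 0.0109), with clean reads as library size (-0.60, adjusted p = 0.0448), with only the groups compared (adjusted p = 0.0377), and without MEF batch 13 (adjusted p = 0.022) or 14 (adjusted p = 0.0421). NT-ESCs did with TMM-type scaling (-0.52, adjusted p = 0.0379) and with only the groups compared (adjusted p = 0.0309). For miR-484, MEFs stood above ESCs by 0.79 with upper quartile scaling (adjusted p = 0.00287) and at -0.36 with TMM-type scaling (adjusted p = 0.105), and the reprogrammed mean against ESCs was -0.42 with TMM-type scaling (adjusted p = 0.0302). Against MEFs, miR-484 had a VST difference of -0.54 for the NT-ESCs (limma, adjusted p = 0.0363), -0.62 for the NT-iPSCs (adjusted p = 0.0196) and -0.41 for the mean of the 3 types (adjusted p = 0.0381), each called. iPSCs were not called against MEFs, with a mean VST of 10.91 beside 10.97, so the mean does not describe all 3 types. With upper quartile scaling the iPSC difference passed (-0.53, adjusted p = 0.0404). The 3 calls as reported rested on the scaling and on single libraries. The mean difference was -0.065 with TMM-type scaling (adjusted p = 0.717) and -0.24 without MEF batch 14 (adjusted p = 0.207), and it also missed the threshold without MEF batch 15, either iPSC batch, either NT-ESC batch or NT-iPSC batch 52, with adjusted p values from 0.0505 to 0.108. For NT-ESCs the call was lost without MEF batch 14 or 15 or either NT-ESC batch, and for NT-iPSCs without MEF batch 14 or NT-iPSC batch 52, with adjusted p values from 0.0661 to 0.139.

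A ratio within a library needs no scaling. Per read of miR-484, miR-320-3p had 8.63, 9.73 and 11 reads in MEFs and 9.61, 11.9 and 11.1 in ESCs. It had 162 and 189 in iPSCs, 285 and 312 in NT-ESCs, and 354 and 395 in NT-iPSCs. The ranges of MEFs and ESCs overlapped, and those of iPSCs, NT-ESCs and NT-iPSCs followed each other upwards without overlap. The mean log2 ratio of 8.07 ± 0.51 (SD, n = 6) in reprogrammed cells exceeded the 3.43 ± 0.15 (SD, n = 3) of ESCs by 4.64 (two-sided exact permutation test, p = 0.0119, adjusted p = 0.0357 over 6 tests). MEFs against all 9 pluripotent libraries gave -3.24 (exact permutation p = 0.0455, adjusted p = 0.0545), with the ESCs on the side of the MEFs. So the pair of miRNAs that share a Microprocessor-free start changed by unequal amounts between ESCs and reprogrammed cells.

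**Figure D2:**
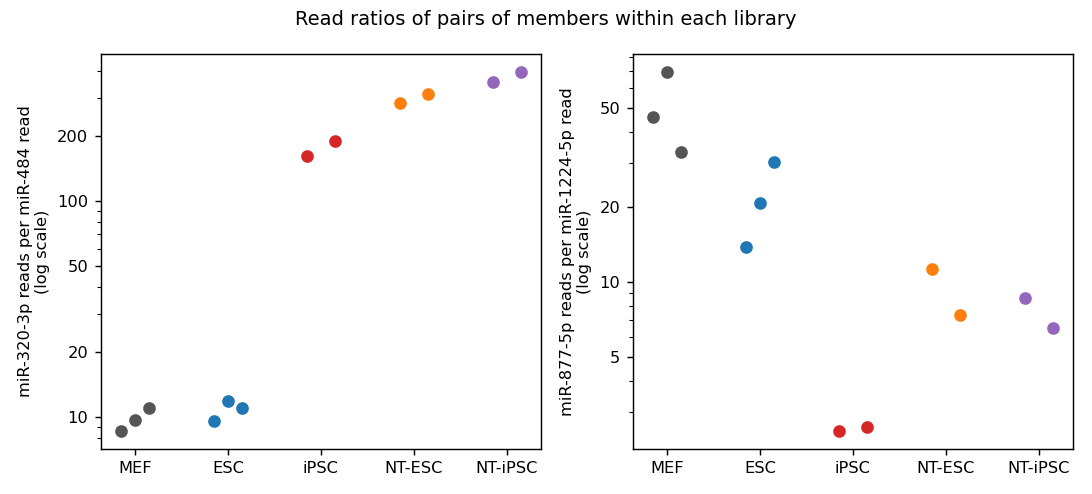
Reads of one member per read of another in each library (log axes), miR-320-3p over miR-484 on the left and miR-877-5p over miR-1224-5p on the right, with 1 point per library. The left ratio is 8.63 to 11.9 in MEFs and ESCs and 162 to 395 in reprogrammed cells, and the right one falls from 33.1 to 69.4 in MEFs to 2.52 and 2.61 in iPSCs.

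miR-877-5p, the mirtron of Abcf1, was highest in ESCs. Its CPM was 213, 258 and 348 in ESCs, and 37.2, 115 and 61.6 in MEFs. The reprogrammed libraries held 126 and 93.8 in iPSCs, 144 and 126 in NT-ESCs, and 97.3 and 121 in NT-iPSCs. No ESC library overlapped a library of any other type. The VST of the reprogrammed mean fell by 1.31 relative to ESCs (SE 0.26; limma, adjusted p = 0.000677), and the single types differed from ESCs by -1.71 (iPSCs, adjusted p = 0.000725), -1.05 (NT-ESCs, adjusted p = 0.0151) and -1.18 (NT-iPSCs, adjusted p = 0.00813). Without ESC batch 4 or either NT-ESC batch, the NT-ESC call was lost (adjusted p 0.0518 to 0.0804), and without NT-iPSC batch 51 so was that of NT-iPSCs (adjusted p = 0.0622). MEFs lay below ESCs by a VST difference of -1.17 (SE 0.30, adjusted p = 0.00430), which was -0.53 with upper quartile scaling (adjusted p = 0.117). Against MEFs the reprogrammed mean was at -0.14 (SE 0.26, adjusted p = 0.610), a value that changed sign with TMM-type scaling (0.20) and with clean reads as library size (0.17). Of the single types, iPSCs stood at -0.54 against MEFs (adjusted p = 0.151), NT-ESCs at 0.12 (adjusted p = 0.746) and NT-iPSCs at -0.0071 (adjusted p = 0.985). The iPSC difference passed with upper quartile scaling (-1.02, adjusted p = 0.0117) and without MEF batch 13 (-0.87, adjusted p = 0.0141).

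The other arm, miR-877-3p, was read rarely. It had 1 read in MEF batch 13 and none in the other MEF batches, 1, 0 and 4 reads in the ESC batches, 3 and 5 in iPSCs, 2 and 3 in NT-ESCs, and 6 and 4 in NT-iPSCs. Of the reads on both arms, 3p reads made up 0.485% in reprogrammed cells (23 of 3p beside 4721 of 5p; 95% exact Clopper-Pearson interval 0.308% to 0.727%), 0.117% in ESCs (0.0380% to 0.273%) and 0.0582% in MEFs (0.00150% to 0.324%). In every type nearly all reads of the hairpin came from the 5p arm. The mean log2 ratio of 5p to 3p reads, with 0.5 read added to each, averaged 7.55 ± 0.75 (SD, n = 6) over the reprogrammed libraries and 9.86 ± 1.51 (SD, n = 3) over the ESC libraries and so differed by -2.31 (exact permutation p = 0.0238, adjusted p = 0.0357). This difference rested on single libraries, with an exact permutation p of 0.0714 without ESC batch 2 and 0.107 without ESC batch 3. ESC batch 3 had 0 reads of the 3p arm, so its log2 ratio of 11.54 was set by the added 0.5 read. The same holds for the MEF batches without a 3p read. Between MEFs and pluripotent cells the mean log2 ratio differed by 1.19 (exact permutation p = 0.291, also after adjustment).

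miR-1224-5p, the mirtron of Vwa5b2, was nearly silent in MEFs and highest in iPSCs. Its reads numbered 7, 13 and 15 in MEFs, a CPM of 0.813, 1.65 and 1.86. In ESCs the CPM was 15.4, 12.5 and 11.5. It was 50.1 and 36.0 in iPSCs, 12.8 and 17.2 in NT-ESCs, and 11.3 and 18.5 in NT-iPSCs. All MEF libraries lay below all others, both iPSC libraries lay above all others, and the ESC, NT-ESC and NT-iPSC libraries overlapped. On VST, MEFs were below ESCs by a difference of -2.32 (SE 0.30; limma, adjusted p = 2.75e-05) and the reprogrammed mean was above MEFs by 2.87 (SE 0.26, adjusted p = 6.84e-07). ESCs held 4.99 times the level of MEFs on normalized reads and 9.11 times on CPM, and iPSCs held 12.1 times on normalized reads and 29.8 times on CPM. iPSCs exceeded ESCs by 1.27 (SE 0.34, adjusted p = 0.00472), whereas NT-ESCs stood at 0.13 (adjusted p = 0.748), which was -0.0062 with TMM-type scaling, and NT-iPSCs at 0.27 (adjusted p = 0.473). The mean of the 3 types against ESCs was 0.56 (SE 0.26, adjusted p = 0.0676) and passed in 4 of the 9 settings that keep all replicates: upper quartile scaling (0.77, adjusted p = 0.0147), a pseudocount of 4 (adjusted p = 0.0360), voom (adjusted p = 0.0332) and only the groups compared (adjusted p = 0.0354). It also passed without MEF batch 13 (0.56, adjusted p = 0.0327) or NT-iPSC batch 51 (0.67, adjusted p = 0.0394). MEF batch 13 was the lowest MEF library for each of the 4 members past the filter.

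The 2 mirtrons that fill an intron thus differed in their balance as well. miR-877-5p had 45.7, 69.4 and 33.1 reads per read of miR-1224-5p in MEFs and 13.8, 20.7 and 30.1 in ESCs. The ratio was 2.52 and 2.61 in iPSCs, 11.2 and 7.35 in NT-ESCs, and 8.59 and 6.54 in NT-iPSCs. MEFs, ESCs and reprogrammed cells held separate ranges, in that order from high to low. This ratio was chosen after its values were seen and has no test.

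Among the reprogrammed types, 1 difference of a member passed. miR-1224-5p was lower in NT-ESCs than in iPSCs by a VST difference of -1.15 (SE 0.37; limma, adjusted p = 0.0419), a call that was lost when any 1 library of ESCs, iPSCs or NT-ESCs was left out (adjusted p 0.0519 to 0.220). NT-iPSCs against iPSCs gave -1.003 for the same miRNA (SE 0.37, adjusted p = 0.0688). It passed without MEF batch 13 (adjusted p = 0.0303), with TMM-type scaling, clean reads as library size, a pseudocount of 4 and voom (adjusted p 0.00971 to 0.0379). For miR-320-3p, NT-iPSCs against iPSCs stood at 0.53 (SE 0.27, adjusted p = 0.180; 0.0183 without MEF batch 13) and NT-ESCs against iPSCs at 0.29 (SE 0.27, adjusted p = 0.471). For miR-877-5p the same comparisons gave 0.54 (adjusted p = 0.329) and 0.67 (adjusted p = 0.224). For miR-484 they gave -0.56 (adjusted p = 0.113; 0.0386 without MEF batch 13) and -0.48 (adjusted p = 0.167). None of these 6 values passed in the test as reported, although that of miR-484 for NT-iPSCs against iPSCs did with clean reads as library size (-0.84, adjusted p = 0.0350), and the fibroblast rows differed between the types in the amounts given above.

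**Figure D3:**
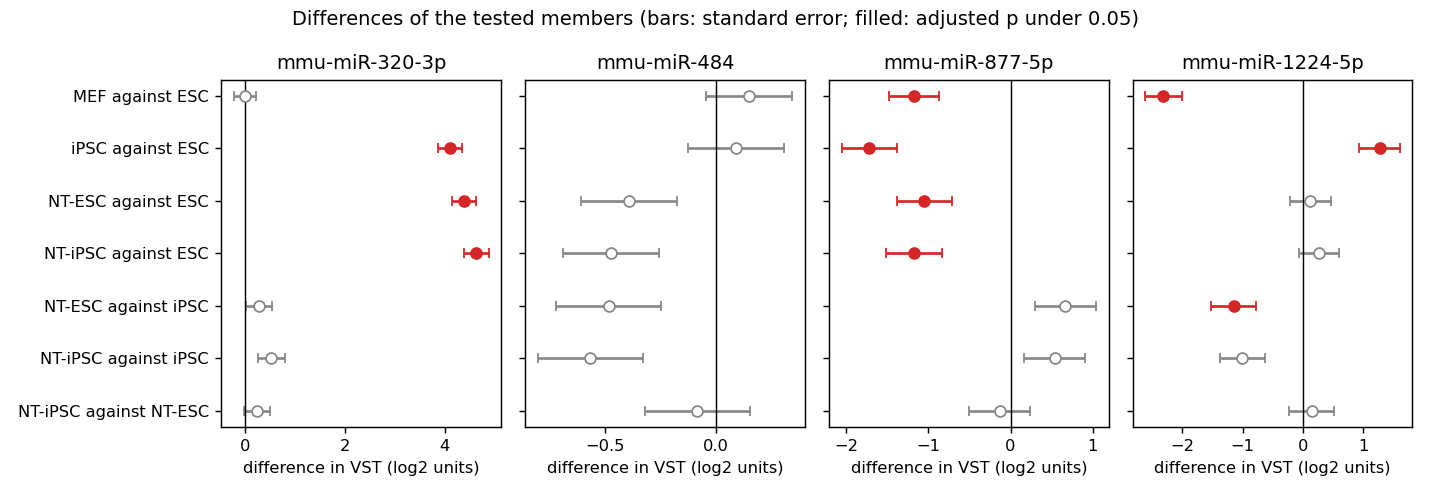
Difference in mean VST (log2 units) of the 4 members past the filter in 7 comparisons, as points with standard errors, filled where limma's adjusted p is under 0.05. miR-320-3p lies near 0 for MEFs against ESCs and between 4.11 and 4.64 for the reprogrammed types, and miR-877-5p lies below 0 in all 4 comparisons with ESCs.

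The members' calls have to be read against the table as a whole, since most miRNAs differed between these cell types. Between MEFs and ESCs 2 of the 4 tested members were called, both lower in MEFs, beside 79% of all 732 miRNAs. Against ESCs, 3 of 4 were called in iPSCs (75.8% of all), 2 in NT-ESCs (75.8%), 2 in NT-iPSCs (77.6%) and 2 for the mean of the reprogrammed types (82%). Against MEFs, 2 were called in iPSCs (87.8%), 3 in NT-ESCs (84%), 3 in NT-iPSCs (83.1%) and 3 for the mean (88.9%). Between reprogrammed types, 1 of 4 was called for NT-ESCs against iPSCs (25.7%), 0 for NT-iPSCs against iPSCs (26.5%) and 0 for NT-iPSCs against NT-ESCs (12.8%). Of these last 2 comparisons by limma, the first had 2 members at an unadjusted p under 0.05 and 1 called by voom, and the second had 0 by both. With the test as reported, the share of members called was above that of all miRNAs in none of the 12 comparisons, but this depended on the setting. It was above for NT-iPSCs against iPSCs with clean reads as library size (2 of 4 beside 34.3%) and without MEF batch 13 (3 of 4 beside 27.9%), for iPSCs against MEFs with upper quartile scaling (4 of 4 beside 87.6%), and for iPSCs against ESCs without any 1 ESC or iPSC batch (3 of 4 beside 71% to 74.2%). With no read filter it was above for NT-iPSCs against MEFs (5 of 7 beside 68.4%) and against NT-ESCs (1 of 7 beside 8.86%), counts that include miR-320-5p and miR-877-3p at 6 reads or fewer in a library. The median difference of the members for the reprogrammed mean against ESCs was 0.15, and that of all 732 miRNAs was 0.24.

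Other miRNAs made without the usual cut were listed by name for comparison: the mirtrons miR-1981, miR-1982 and miR-3102, the snoRNA-derived miR-1839 and miR-664, the tRNA-derived miR-1983, the rRNA-derived miR-712, and miR-451, which Ago2 cuts in place of Dicer. They had 17 rows, of which 11 passed the read filter; the 2 rows of miR-1982-3p held the same reads. Of the 11, miR-664-3p and miR-712-5p passed it only through the reprogrammed libraries, where they were high, and are left out of the counts that follow; the 4 members reached the filter within the MEF and within the ESC libraries alone. For the reprogrammed mean against ESCs, 8 of the remaining 9 were called, 5 higher and 3 lower, beside 82% of all miRNAs. Against MEFs 8 of 9 were called (88.9% of all), again 5 higher and 3 lower, and MEFs against ESCs had 6 of 9 (79% of all), 5 higher and 1 lower. The 3 largest rises over ESCs among the 9 were those of miR-1983 by 3.43, miR-3102-3p by 3.38 and miR-1839-5p by 2.49 (limma, adjusted p = 1.37e-08, 1.87e-06 and 2.42e-09), and that of miR-320-3p was 4.38.

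Both directions also occurred among the mirtrons of that list. miR-1981-5p had a CPM of 1572 to 1710 in ESCs, beside 230 to 507 in MEFs and 333 to 732 in the reprogrammed libraries. As for miR-877-5p, the ESC libraries stood above all others, and the reprogrammed mean was below ESCs by a VST difference of -1.92 (SE 0.18; limma, adjusted p = 1.32e-06). miR-3102-3p went the other way, at a CPM of 12.03 to 29.7 in reprogrammed cells, beside 1.28 to 3.18 in MEFs and 0.995 to 2.43 in ESCs. The tRNA-derived miR-1983 had a pattern like that of miR-320-3p, with a CPM of 263 to 456 in reprogrammed cells, beside 15.6 to 21.4 in MEFs and 25.9 to 41.6 in ESCs.

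**Figure D4:**
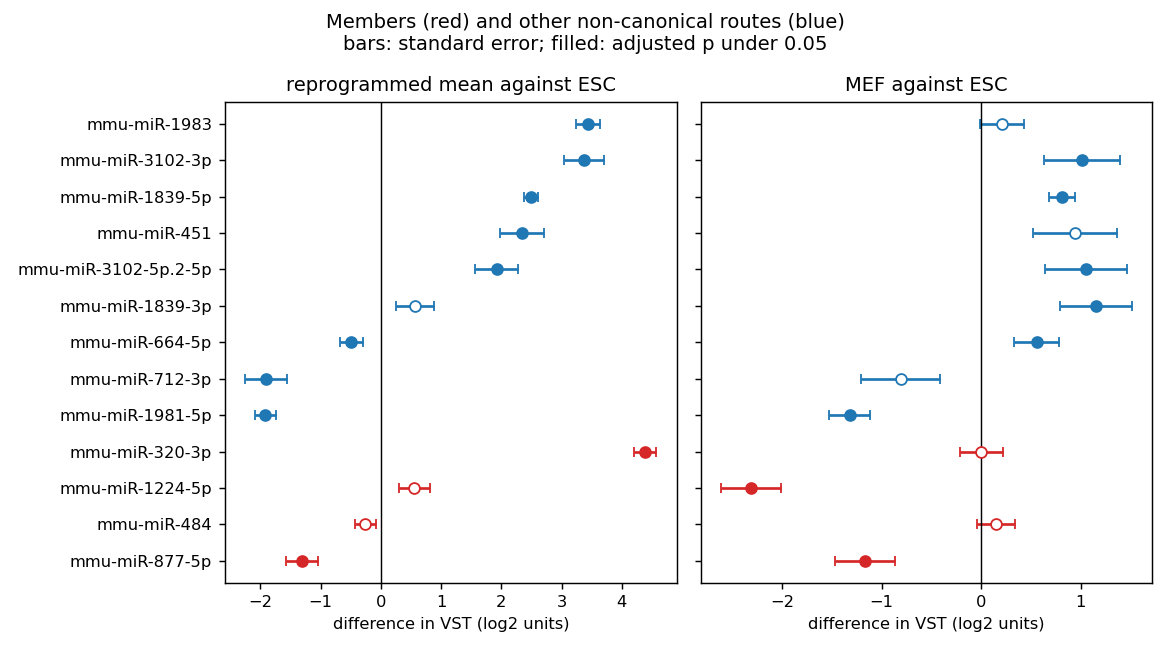
Difference in mean VST (log2 units) of the 4 members past the filter (red) and 9 tested miRNAs of other non-canonical routes (blue; miR-664-3p and miR-712-5p, which passed the filter only through the reprogrammed libraries, are not drawn), for the reprogrammed mean against ESCs on the left and MEFs against ESCs on the right, with standard errors and filled points where the adjusted p is under 0.05. miR-320-3p at 4.38 lies furthest to the right in the left panel, and miR-1981-5p, miR-712-3p and miR-877-5p lie below 0 in both.

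The miRNAs whose VST ran most like that of each member were sought over the 12 libraries, which share scalings and fall into groups of cell types, so that the correlations are descriptions. For miR-320-3p they were miR-219-1-3p, miR-29c-3p and miR-129-2-3p, with a Pearson's r of 0.99 each, and its 12 libraries formed a low and a high set. For miR-1224-5p they were miR-302a-3p (r = 0.96), miR-760-3p (r = 0.96) and miR-302a-5p (r = 0.96), of which miR-302a belongs to the cluster that marks pluripotent cells. miR-877-5p ran most like miR-191-3p (r = 0.87), miR-328-3p (r = 0.86) and miR-182-5p (r = 0.82). The likeness was weakest for miR-484, at 0.75 for miR-539-5p, 0.75 for miR-188-5p and 0.74 for miR-136-5p. Over the 6 pairs of members, r ran from -0.53 to 0.66. The miRNAs named above were picked for the highest r, so a comparison of the pairs with them has no meaning.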

How the data were processed

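From small RNA sequencing the authors deposited 1 log2 scale value per miRNA and library, normalized and variance stabilized with DESeq. The build in the submitters' processing notes is mm8; the miRBase release is not given in the sources used here. Reads were recovered by inverting the transformation (100% of nonzero values whole within 0.05 read); size factors are known up to a constant. No pair of replicates was alike within counting noise (chi-square per degree of freedom 46.4 to 349.6). Groups were tested with limma (version 3.58.1 in R 4.3.3) on the VST of all 12 libraries with 5 group means, trended empirical Bayes and Benjamini-Hochberg adjustment at 0.05 over 732 miRNAs. Ratios and shares were tested by exact permutation, with all arrangements of the libraries counted by the absolute difference in means. On simulated data for the reprogrammed mean against ESCs, 92% of changes of 1 and 97% of changes of 2 among 732 miRNAs came back, and the test called 0.38% of unchanged miRNAs. The simulation gave all miRNAs 1 shared spread and known size factors, and changed a minority of them equally up and down. In the data 82% were called and the scalings disagreed, so these rates need not carry over. The members, the list of other routes and the markers were chosen with earlier results of these data known. miRNAs named were the members, that list, and the 3 most like each tested member. Alternatives were upper quartile and TMM-type scaling, the clean reads left by the study's read filters as library size, normalized reads on a log2 scale (pseudocount 1 or 4), voom, no filter, a group with 100 or more reads in all its libraries, fits of only the groups compared, a difference of 1 or more, 1 read added to ratios, and each replicate left out. No paired analysis was possible because the groups share no replicate numbers. Apart from voom on the recovered reads, no model of read counts was run.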

Additional observations from a re-analysis of the deposited data

Results flagged for a closer look

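The difference of mmu-miR-1224-5p between NT-ESCs and iPSCs, -1.15 on the VST scale (limma, adjusted p = 0.0419), was picked out because 2 reprogrammed types differed from each other in a direct test. The CPM was 12.8 and 17.2 in NT-ESCs and 50.1 and 36.0 in iPSCs, lower in 2 of 2 NT-ESC libraries than in either iPSC library. No group had 4 or more libraries, so single libraries were not tested as outliers.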

How the results depend on the processing

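Between MEFs and ESCs the scalings moved the median difference of all miRNAs by 0.54 (upper quartile), -0.41 (TMM-type) and -0.26 (clean reads as library size), and member differences with MEFs carry that shift. The rises of miR-320-3p over ESCs and MEFs, the low miR-1224-5p of MEFs and the fall of miR-877-5p from ESCs to the reprogrammed mean and to iPSCs kept direction and call in all settings run. Over 9 other settings, of 432 single member differences 388 kept direction and side of the threshold, as did 529 of 576 with a replicate left out.

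Without miR-320-3p, the difference in the members' share between reprogrammed cells and ESCs turned to -0.0146 percentage points. Members called for NT-ESCs against iPSCs were 0 with no filter (19.7% of all) or only the groups compared (19.3%) and 0 to 1 with replicates left out. For NT-iPSCs against iPSCs they were 1 with TMM-type scaling (27% of all miRNAs called), a pseudocount of 4 or voom (31.8% each), 2 with clean reads (34.3%), and 0 to 3 with replicates left out (3 without MEF batch 13, beside 27.9%). For NT-iPSCs against NT-ESCs, 1 was called with no filter (8.86% of all), miR-320-5p (3 and 4 reads against 0 and 0, adjusted p = 0.0428). With replicates left out, the log2 ratio of miR-877-5p to miR-877-3p reads for reprogrammed cells against ESCs ran from -2.94 to -1.47, that of miR-320-3p to miR-484 for MEFs against pluripotent cells from -3.65 to -2.98, and the share for MEFs against pluripotent cells from -1.37 to -1.14.

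The sign of these small differences, none past the threshold as reported, turned. With TMM-type scaling, MEFs against ESCs gave -0.51 for miR-320-3p and -0.36 for miR-484, iPSCs gave -0.072 against ESCs and 0.28 against MEFs for miR-484, NT-ESCs against ESCs gave -0.0062 for miR-1224-5p, and for miR-877-5p against MEFs NT-iPSCs gave 0.30 and the reprogrammed mean 0.20. With clean reads, MEFs against ESCs gave -0.32 for miR-320-3p and -0.17 for miR-484, iPSCs against MEFs 0.41 for miR-484, and for miR-877-5p against MEFs NT-iPSCs gave 0.19 and the reprogrammed mean 0.17. With upper quartile scaling, NT-ESCs against MEFs gave -0.28 for miR-877-5p. With replicates left out, MEFs against ESCs ran from -0.17 to 0.30 for miR-320-3p and from -0.019 to 0.36 for miR-484. miR-484 ran from -0.27 to 0.11 for iPSCs against MEFs and from -0.23 to 0.067 for NT-iPSCs against NT-ESCs. miR-877-5p against MEFs ran from -0.20 to 0.49 for NT-ESCs, from -0.33 to 0.36 for NT-iPSCs and from -0.47 to 0.23 for the reprogrammed mean, and NT-iPSCs against NT-ESCs from -0.27 to 0.01. miR-1224-5p against ESCs ran from -0.11 to 0.36 for NT-ESCs and from -0.063 to 0.61 for NT-iPSCs, and NT-iPSCs against NT-ESCs from -0.19 to 0.48. Apart from the shift of the scalings themselves, the cause was not tested.

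Depth limits miR-320-5p, miR-702 and miR-877-3p, with at most 6 reads in a library, and miR-1224-3p, with 0. They were not tested under the read filter. With no filter, miR-320-5p and miR-877-3p were called in some comparisons, on these few reads. miR-320-5p was called for iPSCs (1 and 3 reads, adjusted p = 0.0121) and NT-iPSCs (3 and 4 reads, adjusted p = 0.00207) against 0 reads in every ESC library, while both NT-ESC libraries also held 0, so that a call for the mean of the types (adjusted p = 0.0105) does not describe all 3. miR-877-3p was called for that mean, at 2 to 6 reads, against MEFs at 0 to 1 (adjusted p = 0.0144), with the NT-ESCs alone at an adjusted p of 0.100. miR-702 was called in none of the 12 comparisons by limma, also at an unadjusted p under 0.05 (adjusted p 0.164 to 0.978). With 2 or 3 batches of 1 line per type, differences between lines of a type were not measured. No paired analysis was possible because the groups share no replicate numbers.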
